A study of Mus musculus with 2 samples.

Results

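Hormone-low endocrine cells are cells of the embryonic pancreas that carried transcripts of the secretory and transcriptional machinery shared by all islet cells but little of the 4 major islet hormones. They were chosen by rule from droplet single-cell RNA-seq of mouse pancreas at embryonic day 18.5. A cell barcode was kept when at least 500 genes were detected and at most 10% of its UMIs (unique molecular identifiers, each standing for 1 captured transcript) were mitochondrial. A kept barcode was a member when it held at least 5 UMIs of Chga, Chgb, Pcsk1n, Neurod1 and Pax6 together and at most 1 UMI of Neurog3, with insulin (Ins1 and Ins2), glucagon (Gcg), somatostatin (Sst) and ghrelin (Ghrl) each under 1% of its UMIs. It also had fewer than 10 UMIs of Col1a1, Col1a2 and Col3a1 and under 2% of UMIs from the digestive enzyme genes Ctrb1, Clps, Cpa1, Cela1 and Reg1. The rule found 105 members among 5890 kept barcodes of 8765 in all, 46 in the library labelled control and 59 in the library labelled knockout. Both libraries came from C57BL/6 pancreas. The series calls the knockout Dpy30∆P, while the promoter behind the deletion and the deleted exons were not given in the sources used here. There was 1 library for each label, so no difference between the libraries was tested, and every interval below is a 95% interval that covers counting error only.

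Endocrine cells of the embryonic pancreas arise from progenitors that switch on Neurog3, a transcription factor needed for islet fate. Neurod1, Pax6, Isl1 and Insm1 act after it, and cells then settle on a hormone: Pou3f4 is characteristic of the glucagon lineage, Pdx1 and Nkx6-1 of the insulin lineage, and Hhex of the somatostatin lineage. Dpy30 is a subunit shared by the trithorax-group (TrxG) complexes, which methylate lysine 4 of histone H3 at promoters and enhancers.

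Several facts of the libraries bear on the values that follow. The deposited totals were 25398522 UMIs in the control-labelled library and 33048640 in the knockout-labelled one, and the members contributed 392488 and 425951 of these. Members had a median of 6052.5 UMIs and 2406 genes in the first and 5653 UMIs and 2305 genes in the second, so their depth was alike. The embryos differed in sex: the members held 0 and 1192 UMIs of Xist and 30 and 0 UMIs of the Y-linked Ddx3y, so sex and genotype cannot be told apart. The recorded resuspension volume also differed, at 500 µL for the control-labelled and 250 µL for the knockout-labelled library, with a target of 10000 cells for each. This difference in handling cannot be told apart from the label either. Dpy30 itself was not lower in the knockout-labelled members, with 86 and 164 UMIs, a level of 219 CPM (UMIs per 1000000; 95% interval 175 to 271) against 385 CPM (328 to 449). Reads of this kit come from the 3′ end of transcripts, and without the deleted exons this count does not check the label. Of 27 barcode sequences found in both libraries, 0 belonged to a member.

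The members' own markers fitted the name in part. Chgb, a granin of secretory granules, was found in 41 of 46 and 46 of 59 members, Neurod1 in 35 and 49, and Pax6 in 37 and 48. These genes were part of the rule, so their levels are a description. Pou3f4 was found in 7 and 29 members. Cartpt, a peptide given as a marker of these cells, went against the label, with 0 UMIs in the control-labelled members and 4 UMIs in 2 of the knockout-labelled members. Its summed level was higher in glucagon-rich barcodes, at 81.8 CPM in the control-labelled and 1742 CPM in the knockout-labelled library. Few barcodes carried it, with a Cartpt UMI in 5 of 74 and 8 of 28 glucagon-rich ones. It was also found in 5 of 163 and 4 of 55 insulin-rich barcodes and in 1 of 22 and 0 of 26 Neurog3-positive ones.

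The members lay close to the limits of the rule in a minority of cases. Insulin UMIs reached at most 0.430% of a control-labelled member's total and 0.989% of a knockout-labelled one's. In the control-labelled library 18 members had every hormone under 0.1% and 6 had one between 0.5% and 1%. In the knockout-labelled library these numbers were 41 and 8. Just outside the limit, 7 and 10 hormone-rich barcodes had a largest hormone between 1% and 2%. Only 8 and 9 members held 5 to 9 endocrine UMIs, and 2 and 1 barcodes missed membership with 4. A single Neurog3 UMI was present in 5 and 7 members, and 3 and 2 barcodes with 2 such UMIs fell outside.

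Hormone-low barcodes made up a larger share of the endocrine compartment in the knockout-labelled library, but not of all cells. They were 13.5% of 342 endocrine barcodes in the control-labelled library (Clopper-Pearson 95% interval 10.0 to 17.5) and 30.3% of 195 in the knockout-labelled library (23.9 to 37.2). The second share was 2.25 times the first (Katz interval 1.60 to 3.17). As a share of all kept barcodes they were 1.75% (interval 1.28 to 2.32) and 1.81% (interval 1.38 to 2.33). The ratio of these was 1.04 (0.708 to 1.52). Larger differences lay in the insulin-rich and glucagon-rich barcodes. Insulin-rich barcodes, those whose largest hormone was insulin at 1% or more, made up 6.19% of kept barcodes in the control-labelled library and 1.69% in the knockout-labelled one. The glucagon-rich barcodes made up 2.81% and 0.860%. Somatostatin-rich barcodes made up 0.836% and 0.522% and ghrelin-rich ones 0.570% and 0.307%, and the intervals of both ratios included 1. Neurog3-positive barcodes, with at least 2 Neurog3 UMIs and every hormone under 1%, were near level at 0.836% and 0.798%. As a share of endocrine barcodes the Neurog3-positive ones were also larger in the knockout-labelled library, at 6.43% and 13.3%, a ratio of 2.07 (1.21 to 3.56). All endocrine barcodes together were 13.0% and 5.99% of those kept. The plot of class shares shows both denominators.

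**Figure D1:**
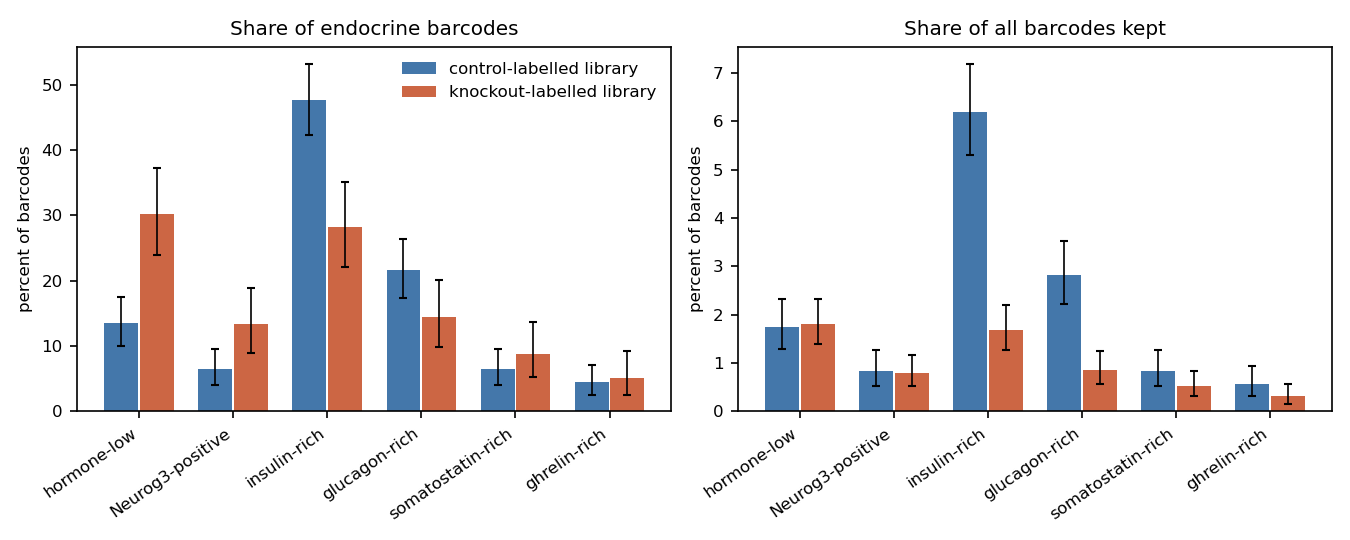
Share of barcodes in each endocrine class, as a percent of endocrine barcodes (left) and of all kept barcodes (right). Bars are the 1 library of each label and lines are 95% Clopper-Pearson intervals. Hormone-low barcodes stand at 13.5% and 30.3% on the left but at 1.75% and 1.81% on the right.

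The members were of several kinds. Of the control-labelled members 5 of 46, and of the knockout-labelled members 6 of 59, held at least 5 UMIs from a list of peripheral neuron markers. Prph, an intermediate filament protein of peripheral neurons, was found in every one of these 11, and Neurod1 and Pax6 in 0. They met the rule through granin transcripts, and are called Prph-rich here. A second kind, 4 and 3 barcodes, held at least 5 UMIs of the ductal genes Spp1, Krt19, Sox9, Cftr and Anxa3. These Spp1-rich barcodes were deep, with median totals of 19817 and 13890 UMIs, and 1 of the 4 control-labelled ones was the only member that Scrublet called a doublet. Pax6, which is part of the rule, was present in all 4 and all 3 of them. A droplet shared with an endocrine cell could hold Pax6 too, so its presence does not decide this. Whether 2 cells shared these droplets was not tested further. Among the remaining members, Pyy, a peptide hormone of gut and early islet cells, reached 1% of UMIs or more in 13 and 12. Iapp, the amyloid peptide secreted with insulin, did so in 5 and 4 of the others. The largest group, 19 and 34 members, met none of these descriptions.

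Clustering the members without the rule genes, peptide hormone genes Pyy, Ppy and Iapp, Xist or Y-linked genes gave 5 sub-clusters, which matched these kinds only in part. The members set apart by Pyy fell 10, 6 and 9 into sub-clusters 1, 2 and 4. Those set apart by Iapp fell 6 and 3 into sub-clusters 1 and 2. Sub-cluster 1, of 53 barcodes, was led by Ctxn2, Pou3f4, Akr1c13 and Ttr. Pou3f4 stood at 247 CPM inside it and 32.1 CPM in the other members. Sub-cluster 2, of 24 barcodes, was led by Cryba2, a crystallin found in endocrine cells, by Gng12, and by the transcription factor genes Pdx1 and Nkx6-1. Its Pdx1 level was 527 CPM against 86.0 CPM elsewhere, and its Nkx6-1 level 444 against 107. Sub-cluster 3, of 12, was led by the neuronal genes Stmn2 and Sncg and held all 11 Prph-rich members. Sub-cluster 4, of 9, was led by Gast, Pyy, Rbp4 and Ppy, with Pyy at 86328 CPM. Sub-cluster 5, of 7, held the Spp1-rich members and was led by Spp1 and Clu. The control-labelled library gave 12, 18, 5, 7 and 4 barcodes to sub-clusters 1 to 5, and the knockout-labelled library 41, 6, 7, 2 and 3. A cluster that comes mostly from 1 library, as the first does, may be that library and not a kind of cell.

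**Figure D2:**
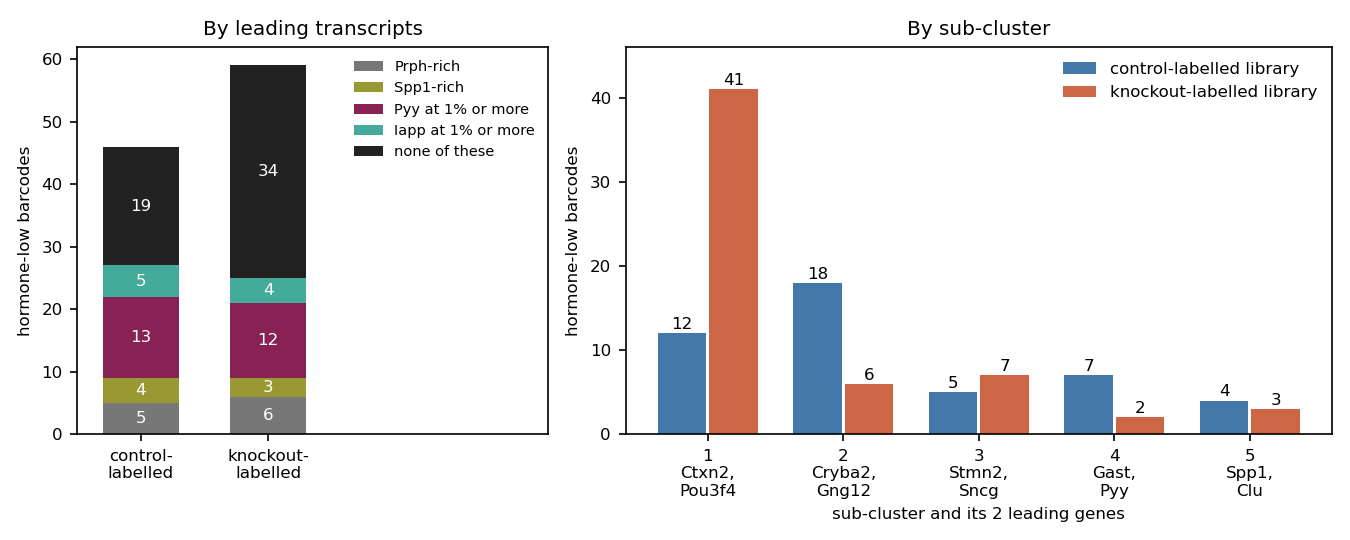
Number of hormone-low barcodes in each library by leading transcripts (left, stacked) and by sub-cluster (right). Sub-cluster 1 holds 12 control-labelled and 41 knockout-labelled barcodes, and sub-cluster 2 holds 18 and 6. The Prph-rich and Spp1-rich barcodes number 9 in each library.

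Beside the Neurog3-positive barcodes, the members were higher in Pcsk2 and Slc38a5 and lower in Spp1, Hes1 and Cdkn1a in both libraries. By the fixed ranking, the genes highest over each other endocrine class were mostly those of the Prph-rich barcodes. Stmn2, Sncg and Prph, for example, had 0 UMIs in the Neurog3-positive barcodes of both libraries. Without the Prph-rich, Spp1-rich and haemoglobin-rich members, which left 36 and 49, the leading genes were Slc38a5, Pcsk2, Dbpht2 and Tmem27. Over all members Pcsk2, a prohormone convertase, was at 1885 CPM against 238 in the Neurog3-positive barcodes of the control-labelled library, and at 2197 against 246 in the knockout-labelled library. Slc38a5, an amino acid transporter of alpha cells, was at 285 against 7.09 CPM and at 349.8 against 4.10. Other genes of the secretory list did not all go this way. Ptprn2, a granule membrane protein gene, was at 71.3 against 53.2 CPM and at 82.2 against 107. Chga and Chgb, which are part of the rule, were at 1042 against 1124 and 951 against 968 CPM in the knockout-labelled library. On the low side, over all members, stood Spp1, at 1475 against 6993 CPM and 636 against 2674, and Hes1, a Notch target, at 110 against 621 and 110 against 504. Cdkn1a, a cell cycle inhibitor, was at 155 CPM over all control-labelled members against 582 and at 190 over the knockout-labelled ones against 1374.

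Beside each class of hormone-rich barcodes, the members were lower in some genes in both libraries. Npy, a peptide of embryonic beta cells, had 0 UMIs in control-labelled members and was at 1258 CPM in insulin-rich barcodes. The knockout-labelled values were 14.1 and 837 CPM. The glucose transporter gene Slc2a2 was at 30.6 against 228 CPM and 7.04 against 94.3, and G6pc2, a glucose-6-phosphatase of beta cells, at 15.3 against 284 and 21.1 against 180. Against glucagon-rich barcodes the members were lower in Gpx3, at 242 against 1243 CPM and 127 against 1343, and in Ttr, the thyroxine carrier transthyretin, at 2275 against 11393 and 4601 against 25836. Against somatostatin-rich barcodes they were lower in Hhex, at 191 against 770 CPM and 96.3 against 715. Against ghrelin-rich barcodes they were lower in Cdkn1a, at 155 against 1412 CPM and 190 against 1405. In the other direction, Nkx6-1 was at 186 and 157 CPM in the members, above the glucagon-rich barcodes at 56.6 and 31.3 and below the insulin-rich ones at 232 and 254. Cryba2 was at 652 and 282 CPM in the members, above the glucagon-rich barcodes at 203 and 148.

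**Figure D3:**
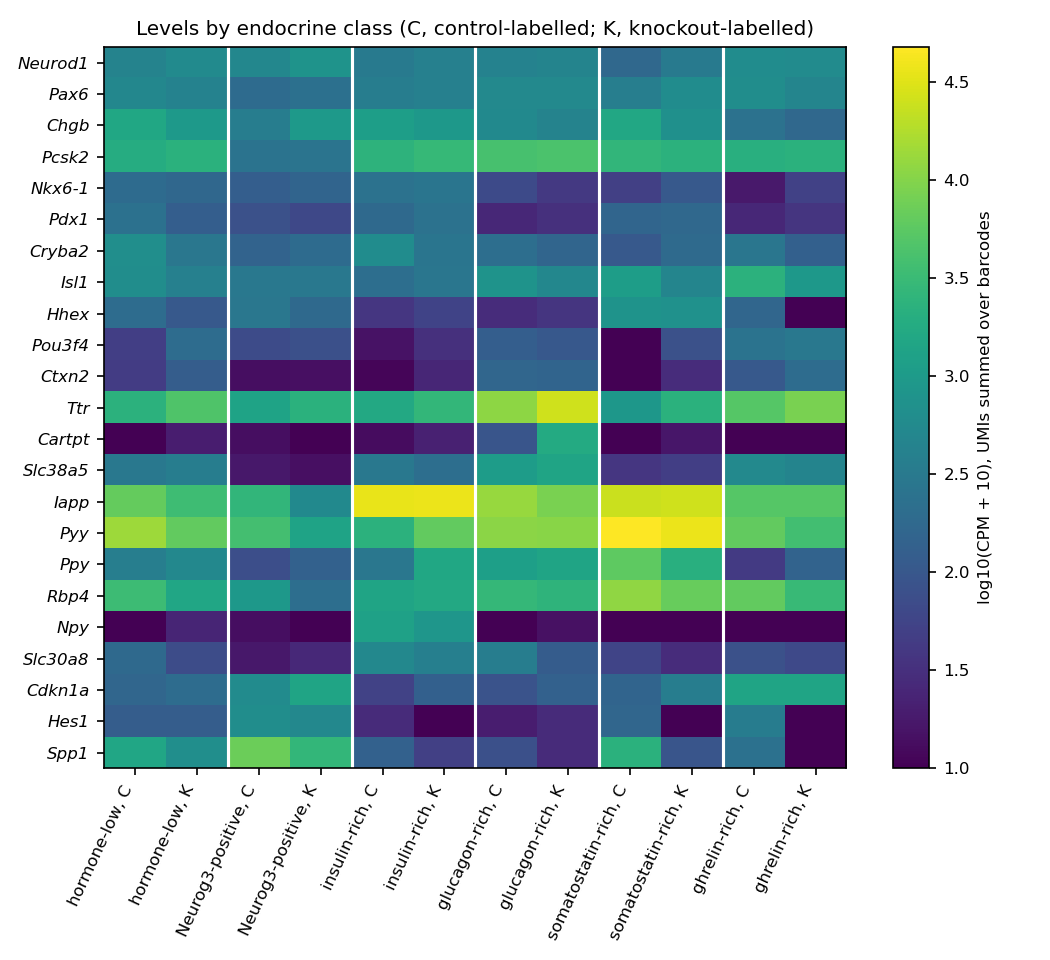
Level of 23 genes in the 6 endocrine classes of each library, as log10(CPM + 10) of UMIs summed over the barcodes of a class. C is the control-labelled and K the knockout-labelled library. Cartpt is bright only in the glucagon-rich barcodes, with 1742 CPM in K, and Npy only in the insulin-rich ones.

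Between the libraries Pou3f4, the POU-domain transcription factor gene, headed the ranking of genes higher in the knockout-labelled members. Of 2557 genes with at least 50 UMIs over both libraries, 190 (7.43%) were at least 1.5-fold higher and 153 (5.98%) at least 1.5-fold lower in the knockout-labelled library. The median log2 ratio of these genes was 0.03. The 12 genes furthest from 1 in each direction, ranked by the interval bound nearest 1, are the ones described below, with the gene lists. Pou3f4 (ENSMUSG00000056854, chrX:110814280-110817207, GRCm38) had 15 UMIs in the control-labelled members and 80 in the knockout-labelled ones. Per 10000 UMIs, its lowest, median and highest values over members were 0, 0 and 4.51 in the first and 0, 0 and 14.7 in the second. The highest knockout-labelled values lay above every control-labelled one, while 30 knockout-labelled members had no Pou3f4 UMI, and the ranges overlapped from 0 to 4.51. The summed level was 38.2 CPM (21.4 to 63.0) against 188 CPM (149 to 234), a 4.91-fold higher level (2.81 to 9.19). A single Spp1-rich barcode gave 46.7% of the control-labelled UMIs, and without the Prph-rich, Spp1-rich and haemoglobin-rich members the ratio was 8.16 (3.94 to 19.6). Over those 36 and 49 members, 8.84% of 1652 genes with at least 50 UMIs were at least 1.5-fold higher and 7.2% at least 1.5-fold lower. With no Neurog3 UMI allowed the log2 ratio of Pou3f4 was 3.36, beside 2.30 for all members. With every barcode thinned to 2000 UMIs, 3 of 45 control-labelled members (6.67%, interval 1.40 to 18.3) and 16 of 59 knockout-labelled members (27.1%, 16.4 to 40.3) held a Pou3f4 UMI. Unthinned shares were 15.2% and 49.2%. Collagen-rich mesenchymal barcodes, which should lack the gene, held it in 0 of 1203 and 0 of 1466 after thinning. Within sub-cluster 1 Pou3f4 was at 72.0 CPM in 12 control-labelled and 308 CPM in 41 knockout-labelled members, and within sub-cluster 2 it had 2 UMIs in 18 and 5 UMIs in 6 members. The lineage classes gave a setting for these levels: ghrelin-rich barcodes had 239 and 289 CPM of Pou3f4, glucagon-rich ones 116 and 94.0, and insulin-rich ones 4.95 and 22.5. Somatostatin-rich barcodes had 0 and 70.8 CPM and Neurog3-positive ones 60.3 and 69.7. A higher Pou3f4 level in the knockout-labelled library was thus not particular to the members. Pou3f4 was found in 1 of 13 Pyy-rich and 6 of 33 other members of the control-labelled library, and in 9 of 13 and 20 of 46 of the knockout-labelled one.

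The promoters of Pou3f4, a leading gene of sub-cluster 1, and of Cryba2, the leading gene of sub-cluster 2, are shown because the genes differed in opposite directions between the libraries. Each runs from 250 bases before to 50 bases after the start of transcription (RefSeq, GRCm38.p6). Capitals mark matches to the E-box letters CAGNTG or CANCTG, which are each other's reverse complement and overlap in CAGCTG. Such E-boxes are bound by basic helix-loop-helix factors, the family of NEUROG3 and NEUROD1. Pou3f4 lies at chrX:110814129-110814428 on the plus strand and Cryba2 at chr1:74893094-74893393 on the minus strand.
Pou3f4: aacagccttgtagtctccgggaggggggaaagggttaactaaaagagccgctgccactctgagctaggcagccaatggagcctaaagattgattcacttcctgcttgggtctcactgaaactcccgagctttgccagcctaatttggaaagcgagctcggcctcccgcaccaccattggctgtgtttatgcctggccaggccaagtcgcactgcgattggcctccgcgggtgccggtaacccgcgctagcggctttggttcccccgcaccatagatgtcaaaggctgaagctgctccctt
Cryba2: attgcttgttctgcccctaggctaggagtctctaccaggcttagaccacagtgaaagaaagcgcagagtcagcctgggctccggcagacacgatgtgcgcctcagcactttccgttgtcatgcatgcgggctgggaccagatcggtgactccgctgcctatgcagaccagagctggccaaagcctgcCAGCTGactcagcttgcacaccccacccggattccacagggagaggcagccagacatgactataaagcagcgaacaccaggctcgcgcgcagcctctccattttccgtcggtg
The Cryba2 window held 1 match and the Pou3f4 window 0. Of 32851 promoters of this length, 51.4% held at least 1 match, so a match is common and says nothing of binding.

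Other genes of the higher set were Ttr, Ctxn2, Slc25a5, Akr1c12 and Akr1c13. Ttr, which glucagon-lineage cells express strongly, was found in 39 of 46 and 48 of 59 members. Its lowest, median and highest values per 10000 UMIs were 0, 19.2 and 122 in the control-labelled library and 0, 28.6 and 439 in the knockout-labelled one. The upper part of the knockout-labelled members lay higher and the ranges overlapped through most of their length. The summed level was 2275 against 4601 CPM, 2.02-fold higher (1.87 to 2.19). Ttr was also higher in the knockout-labelled library in some other classes. It was at 11393 and 25836 CPM in glucagon-rich barcodes, 5161 and 8538 in ghrelin-rich ones and 862 and 2196 in somatostatin-rich ones. Ttr in collagen-rich barcodes, a measure of free RNA, was also higher in that library, at 68.9 against 27.0 CPM. Its part in the difference was not tested. Ctxn2, a small membrane protein gene, had 35.7 and 110 CPM, a ratio of 3.09 (1.67 to 6.08). The aldo-keto reductase genes Akr1c12 and Akr1c13, related neighbours on chromosome 13 whose reads may be shared, had ratios of 2.33 (1.38 to 4.06) and 2.26 (1.35 to 3.90). Slc25a5, the X-linked gene of a mitochondrial ADP/ATP carrier, was found in 44 of 46 and 59 of 59 members and had a ratio of 1.57 (1.38 to 1.78). The rest were Mbnl2 and Rbm4b, which encode RNA-binding proteins, Pcif1, which encodes a cap methyltransferase, and Mycbp2, Dpy30 and Tubb2b. Their ratios ran from 1.75 to 2.46. Tubb2b, a neuronal tubulin, was found in only 8 and 15 members. Without the Prph-rich, Spp1-rich and haemoglobin-rich members Tubb2b had 2 and 18 UMIs.

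**Figure D4:**
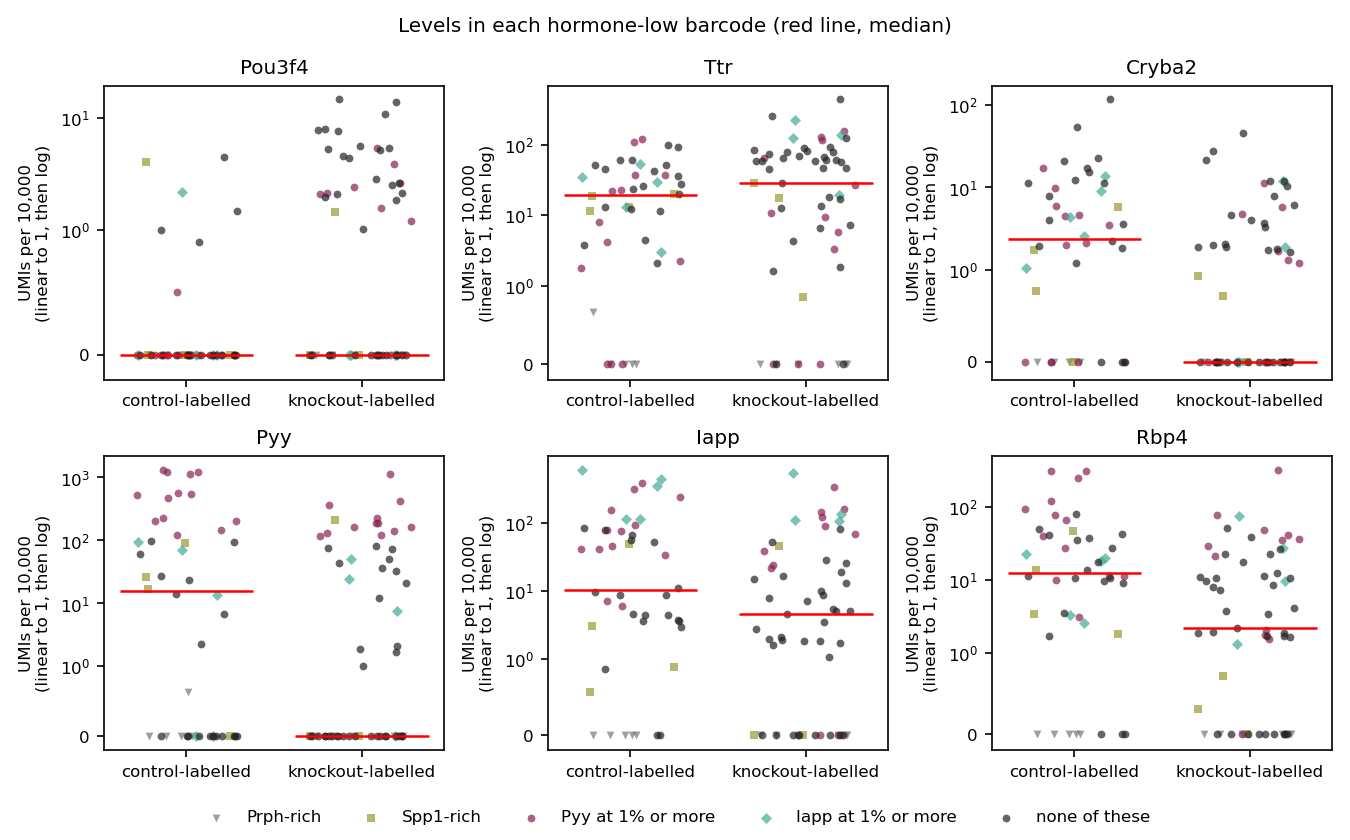
Level of 6 genes in each hormone-low barcode, as UMIs per 10000 on an axis that is linear to 1 and logarithmic above it. Each point is 1 barcode, marked by its leading transcripts, and red lines are medians. Pou3f4 was detected in 7 of 46 and 29 of 59 barcodes, and the median of Rbp4 was 12.5 and 2.18.

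Peptide and carrier genes made up much of the lower set. Pyy was found in 28 of 46 and 29 of 59 members, with medians of 15.5 and 0 and highest values of 1323 and 1127 UMIs per 10000. The 13 members of each library with Pyy at 1% or more carried 87.6% and 85.9% of its UMIs. The summed level was 13631 CPM (13268 to 14001) against 6200.2 CPM (5966 to 6441), 2.20-fold lower in the knockout-labelled library. This did not hold in every sub-cluster. Pyy was higher in the knockout-labelled members of sub-cluster 1, at 6087 against 3407 CPM, and lower in those of sub-cluster 2, at 787 against 10601 CPM. In sub-cluster 4, with 7 and 2 barcodes, it was at 89826 CPM in the control-labelled and 75062 CPM in the knockout-labelled members. With hormones allowed up to 2% the log2 ratio was -0.57 and not -1.14, and with at least 10 endocrine UMIs asked for it was -1.77. Pyy was also lower in the knockout-labelled library in some other classes. Its levels were 3716 and 1349 CPM in Neurog3-positive barcodes, 47559 and 37155 in somatostatin-rich ones and 6134 and 3663 in ghrelin-rich ones. Insulin-rich barcodes went the other way in detection, with a Pyy UMI in 42.9% and 80% after thinning. Rbp4, the retinol carrier, had medians of 12.5 and 2.18 per 10000 and a summed level 2.24-fold lower (2.03 to 2.46). Rbp4 was also lower in the knockout-labelled library in some other classes. It was at 897 and 201 CPM in Neurog3-positive barcodes, 11734.5 and 6531 in somatostatin-rich ones and 6110 and 3043 in ghrelin-rich ones. Iapp had medians of 10.4 and 4.61 and a summed level 1.89-fold lower (1.77 to 2.01), at 6497 against 3442 CPM. Free RNA of Iapp was lower too, with 58.9 CPM in collagen-rich barcodes of the control-labelled library and 13.6 CPM in those of the other. Its part was not tested. Gast, the gastrin gene, was 3.47-fold lower (2.19 to 5.68), yet 1 control-labelled barcode gave 85% of that library's 80 UMIs. Vip was 2.66-fold lower, and all 114 of its UMIs lay in sub-cluster 3.

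The lower set also held Cryba2, Gng12, Cd81 and Ccnd2. Cryba2 was found in 32 of 46 and 29 of 59 members, with medians of 2.40 and 0 and highest values of 118 and 45.5 UMIs per 10000. In the knockout-labelled library 30 members had none, and the ranges overlapped. The summed level was 652 against 282 CPM, 2.32-fold lower (1.86 to 2.90). Cryba2 was not lower within sub-cluster 2, at 1672 CPM in its 18 control-labelled and 2065 CPM in its 6 knockout-labelled members, and it was at 276 and 220 CPM in sub-cluster 1. Gng12, a G protein subunit gene, was 2.74-fold lower (1.88 to 4.06), and 42.2% and 16.9% of thinned members held a UMI. The knockout-labelled share was near the 13.2% of collagen-rich barcodes there. Cd81, a tetraspanin gene, was 2.40-fold lower (1.83 to 3.16) and Ccnd2, the cyclin D2 gene, 3.26-fold lower (2.05 to 5.34). Ccnd2 was also lower in glucagon-rich barcodes, at 815 and 524 CPM. After thinning, 79.7% and 35.7% of glucagon-rich and 52.1% and 30.9% of insulin-rich barcodes held a Ccnd2 UMI. For Cd81 these shares were 43.2% and 35.7%, and 25.8% and 18.2%, beside 55.6% and 33.9% of members. Without the Prph-rich, Spp1-rich and haemoglobin-rich members Ccnd2 was 6.64-fold lower (3.10 to 16.3). Spp1, Clu and Ambp, ductal genes, were 2.32-, 2.08- and 3.21-fold lower, and the highest barcode gave 64.9%, 72.0% and 57.1% of their knockout-labelled UMIs. Without those members the intervals of the Spp1 ratio (0.261 to 1.33) and of the Ambp ratio (0.227 to 1.09) included 1, while Clu was 2.66-fold lower (1.10 to 7.06) on 18 and 8 UMIs. Spp1 is among the genes by which the Spp1-rich members were picked, so its change there was partly fixed by that choice.

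**Figure D5:**
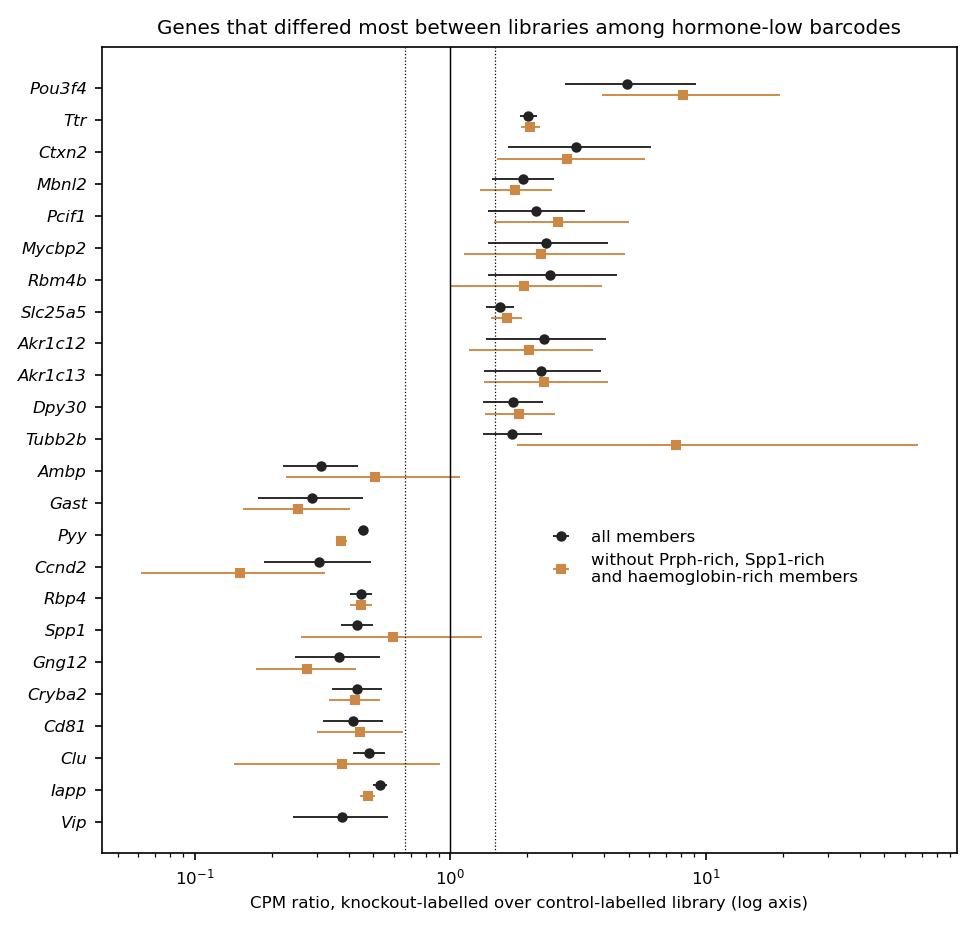
Ratio of CPM in the knockout-labelled to the control-labelled library on a log axis, for the 12 genes highest and the 12 genes lowest by the rule. Points are ratios with 95% exact conditional intervals for all members (black) and without Prph-rich, Spp1-rich and haemoglobin-rich members (orange), and dotted lines mark 1.5-fold. Pou3f4 reaches 4.91 and 8.16, and Vip has no orange point.

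Of the gene lists, read at 20 or more UMIs over both libraries, 13.5% of all 5664 genes at that depth were at least 1.5-fold higher and 11.3% at least 1.5-fold lower in the knockout-labelled library, with a median log2 ratio of 0.04. Among 14 endocrine transcription factor genes, 2 were higher and 2 lower, with a median of -0.12. The higher ones were Rfx3, at 1.55-fold, and Myt1l, at 1.97-fold, and both intervals included 1. Without the Prph-rich, Spp1-rich and haemoglobin-rich members, 0 of 12 were higher and 4 lower, with a median of -0.27. Over all 4041 genes with 20 or more UMIs without those members, 15.2% were at least 1.5-fold higher and 12.1% lower. Their median log2 ratio was 0.05. These shares stand beside every list count below that leaves those members out. Isl1 was 1.63-fold lower (1.34 to 2.00), at 629 against 385 CPM, and was found in 62.2% of thinned control-labelled and 35.6% of thinned knockout-labelled members. The collagen-rich shares were 6.90% and 5.18%. Isl1 was also lower in ghrelin-rich barcodes, at 2265 and 909 CPM, somatostatin-rich ones, at 1109 and 464, and glucagon-rich ones, at 771 and 492. It was not lower in insulin-rich barcodes, at 202 and 263, or Neurog3-positive ones, at 284 and 287. Rfx6, a factor needed for islet development, had 22 and 7 UMIs, and Insm1, at 171 and 160 CPM, and Meis2, at 841 and 770 CPM, lay inside 1.5-fold. Of the lineage factors, Pdx1 was 1.99-fold lower (1.39 to 2.88) at 229 against 115 CPM and Nkx6-1 was at 186 against 157 CPM. A Pdx1 UMI was found in 44.4% of thinned control-labelled members (29.6 to 60.0) and 15.3% of thinned knockout-labelled ones (7.22 to 27.0). Hhex was 1.99-fold lower (1.34 to 2.98), from 14 and 9 members. Irx2, a factor of the glucagon lineage, was at 15.3 and 37.6 CPM, and the interval of its ratio included 1.

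Among the beta cell maturation genes 5 of the 9 read were at least 1.5-fold lower and 0 higher, with a median log2 ratio of -0.59. Slc30a8, the zinc transporter of insulin granules, was 2.75-fold lower (1.73 to 4.52), with 66 and 26 UMIs. Sytl4, a granule docking protein gene, had 24 and 5 UMIs, and Ero1lb, an oxidase of the endoplasmic reticulum, 27 and 11. Ppp1r1a stood just past 1.5-fold on 18 and 13 UMIs and its interval included 1. Of 8 minor peptide genes 5 were lower (Pyy, Iapp, Gast, Vip and Cck) and 1 higher (Sct, with 7 and 25 UMIs). Ppy, the pancreatic polypeptide gene, was at 362 and 514 CPM. Of 10 granin and prohormone processing genes outside the rule, 3 were lower (Scg2, Pam and Ptprn) and 1 higher (Scg5), with a median of 0.01. Scg2 was 1.77-fold lower (1.32 to 2.40), while Pcsk2, at 1885 and 2197 CPM, and Cpe, at 469 and 495 CPM, lay within 1.5-fold. Of 12 exocytosis genes 2 were higher and 1 lower, with a median of 0.00. With the Prph-rich, Spp1-rich and haemoglobin-rich members left out, 3 of 11 exocytosis genes were higher and 2 lower, and 0 of 9 granin and processing genes higher and 2 lower.

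TrxG complex genes lay higher in the knockout-labelled members, with 8 of 12 at least 1.5-fold higher and 0 lower and a median log2 ratio of 0.67. The 8 were Dpy30, Kmt2a, Ash2l, Wdr5, Kdm6a, Setd1b, Cxxc1 and Wdr82. Once the Prph-rich, Spp1-rich and haemoglobin-rich members were left out, 5 of 9 were higher and 0 lower. Wdr5 turned direction there, at a log2 ratio of -0.24, and after thinning, at -0.39. Kmt2a, a histone methyltransferase of these complexes, had 44 and 77 UMIs and a ratio of 1.61 (1.10 to 2.39). Dpy30 had 86 and 164 UMIs, a ratio of 1.76 (1.35 to 2.31). The intervals of the other 6 included 1, and each of the 6 had 15 or fewer control-labelled UMIs. After thinning, the share of members with a Dpy30 UMI was 51.1% and 49.2%, and its log2 ratio was 0.37 and not 0.81. Dpy30 was also higher in insulin-rich barcodes, at 141 and 331 CPM, and in glucagon-rich ones, at 179 and 318, but not in Neurog3-positive ones, at 191 and 144, or collagen-rich ones, at 80.2 and 85.8. Kmt2c, at 71.3 and 63.4 CPM, and Kmt2d, at 33.1 and 37.6 CPM, lay within 1.5-fold.

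Of 11 p53 response genes 1 was higher and 0 lower, with a median log2 ratio of 0.20, and Cdkn1a was at 155 and 190 CPM. Of 18 immediate early and heat shock genes 1 was higher and 1 lower, with a median of 0.04. Of 12 unfolded protein response genes 0 were higher and 1, Herpud1, was lower, with a median of -0.32. Without the Prph-rich, Spp1-rich and haemoglobin-rich members these counts were 2 of 7 p53 response genes higher and 3 of 17 immediate early and heat shock genes lower. They were 3 of 10 unfolded protein response genes lower, with a median of -0.51. Over all members Hspa5, the chaperone BiP, was 1.45-fold lower (1.12 to 1.90). The division genes were sparse: 7 of 28 S phase genes and 1 of 26 genes of G2 and M phase reached 20 UMIs. Of 9 endocrine commitment genes 1 was higher, Fev, the serotonin-lineage factor that marks endocrine precursors, with 14 and 29 UMIs, and 2 were lower, Gadd45a and Cck. Fev and Ddc, an enzyme of monoamine synthesis, were the 2 genes read from the serotonin list, and both were at least 1.5-fold higher with intervals that included 1. All 4 CDK inhibitor genes read lay within 1.5-fold, but 2 of 3, Cdkn1b and Cdkn2d, were higher without the Prph-rich, Spp1-rich and haemoglobin-rich members. Of the 5 alpha cell genes read, Ttr was higher and the others, Sphkap, Slc38a5, Tmem27 and Peg10, lay within 1.5-fold.

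Markers of other cells were present in many members at low counts. At least 5 UMIs were found of the acinar list in 15 of 46 and 44 of 59 members, of the red cell list in 15 and 34, and of the ductal list in 20 and 10. Of 6 pan-epithelial markers 2 were at least 1.5-fold lower, Cldn7 and Krt18, and 0 higher, with a median log2 ratio of -0.48. Of 6 ductal markers read, 4 were lower (Ambp, Spp1, Clu and Sox9) and 0 higher. Summed over the 10 ductal markers listed, a member held between 0 and 453 UMIs in the control-labelled library and between 0 and 441 in the other, with medians of 4 and 2. The acinar markers, of which 5 are part of the rule, had medians of 2 and 6 UMIs and summed levels of 413 and 892 CPM, beside 1197 and 5223 CPM in collagen-rich barcodes. The highest sum of mesenchymal markers was 11 and 8 UMIs in a member, with a median of 0 in both libraries.

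Endothelial markers reached 3 and 2 UMIs in any member, immune markers 2 and 1, and mesothelial markers 2 and 0. Pericyte markers reached 58 UMIs in 1 control-labelled member and 1 UMI in the knockout-labelled ones. Schwann and glial markers reached 8 and 48 UMIs, and the peripheral neuron list 24 and 37. Red cell markers, mostly haemoglobin, reached 6191 and 2461 UMIs, with medians of 3.5 and 5, and their summed levels were 16294 and 7588 CPM. The part of these transcripts in the differences between libraries was not tested beyond the values given without the Prph-rich, Spp1-rich and haemoglobin-rich members.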

How the data were processed

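The deposited files hold UMI counts per gene and barcode, made with Cell Ranger 3.0.0 per the file headers, from Chromium 3′ v2 libraries (labels' protocols). The genome build was GRCm38 (mm10) per the submitters' processing notes, which also name Seurat 2 and 3. A deposited table of the authors' own comparisons was not used here. From the counts, members were found by the rule in the report and UMIs summed per library and class. CPM is per 1000000 of that sum. Ratios have exact conditional binomial intervals, shares Clopper-Pearson ones. The tools were Python 3.11.15, NumPy 2.4.6, SciPy 1.17.1 and scanpy 1.11.5 (Leiden resolution 0.5, 15 neighbours, 15 components, 1000 variable genes). Scrublet called 26 and 29 kept barcodes as doublets, which stayed in. Depth alternatives thinned barcodes to 2000 UMIs. The interval code was tested on simulated data. Genes were named by the largest and smallest 12 ratios by the interval bound nearest 1 between libraries (at least 50 UMIs; rule, haemoglobin, mitochondrial, ribosomal and Y-linked genes, Xist, Tsix, models without a symbol and genes over 5 times higher outside the endocrine barcodes left out), the 8 most different genes against each class, the 10 leading genes of a sub-cluster, and the lists. The members and lists were chosen with earlier results of these data known. The 30 lists were read over genes with at least 20 UMIs, rule genes left out. Intervals cover counting error only. With 1 library per label no p-value was computed. 16 planned and 3 later alternatives were run. Some genes are not reported here.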

Additional observations from a re-analysis of the deposited data

How the results depend on the processing

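No paired analysis was possible because each label has 1 library. The member share of endocrine barcodes stayed between 10.0% and 15.5% in the control-labelled library and between 25.3% and 35.4% in the knockout-labelled one over the alternatives that gave it, with ratios from 2.10 to 2.52. Counts of genes past 1.5-fold depended on the filter. Against 190 higher and 153 lower, genes with at least 20 UMIs gave 764 and 639, genes with 1 UMI in each library 2456 and 2336, a 2-fold limit 21 and 46, and thinning to 2000 UMIs 35 and 38, since fewer genes then reach 50 UMIs. Of 334 values of the 24 genes named between libraries under the alternatives, 333 kept their direction. The exception was Gast, at a log2 ratio of 0.91 without Pyy-rich members. These genes were picked as furthest from 1 in the same data, so a kept direction is weak evidence. Of the 334 values, 283 stayed inside the interval of the gene's main ratio and 50 moved outside it. For gene ratios to other endocrine barcodes, 880 values stayed inside, 235 moved and 5 turned direction. Sparse list genes turned direction: Cck at 1.88 with at least 10 endocrine UMIs and 0.26 with no Neurog3 UMI, Ppp1r1a at 0.59 with hormones under 2% and 0.93 after thinning, Wdr5 at -0.39, Mcm7 at -0.81 and Sesn2 at -0.069 after thinning, and Wdr5 at -0.24 without neuronal, ductal and haemoglobin-rich members. Against Neurog3-positive barcodes, Stmn3 in the knockout-labelled library became -0.49 without neuronal members and -0.18 without all 3 kinds, and Pyy -0.74 and -0.32 in the 2 libraries without Pyy-rich members. Ppy against ghrelin-rich barcodes became -0.81 in the knockout-labelled library without them. The cause was not tested. The alternatives without neuronal, Pyy-rich or all 3 kinds of members were chosen after seeing the data. Leaving out a replicate is not possible with 1 library. Of the named genes, thinning moved Akr1c13 from 1.18 to 2.93, and asking for at least 10 endocrine UMIs moved Rbp4 from -1.16 to -1.91 (log2). Genes with few UMIs have wide intervals, and differences between embryos cannot be told apart from the label.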

Other observations

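Outside the lists, 2 gene models differed between the members of the 2 libraries by more than any named gene. Gm10709 had 1 UMI in the control-labelled members and 255 in the knockout-labelled ones, and Gm10260 had 159 and 6. They fall outside the naming rule and were chosen after their values were seen.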
